A study of Mus musculus with 96 samples.

Results

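AMPA receptors carry the fast excitatory current of the auditory brainstem. Each receptor is a tetramer of the subunits GluA1 to GluA4, encoded by Gria1 to Gria4, and transmembrane AMPA receptor regulatory proteins (TARPs, encoded by Cacng2, Cacng3, Cacng4, Cacng5, Cacng7 and Cacng8) bind to it, carry it to the synapse and shape its gating. Receptors rich in GluA4 are known to close fast, and receptors without edited GluA2 pass calcium. All 10 genes were found by their Ensembl identifier among the 38887 genes of a table of single neurons of the lateral superior olive (LSO), a brainstem nucleus that compares sound level between the ears.

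The neurons came from acute slices of C57BL/6J mice of both sexes at postnatal day 11 ± 1. The cytoplasm was drawn into the patch pipette after the recording and sequenced by a modified Smart-seq2 protocol, so each neuron gave 1 library. Principal neurons (pLSO) were labelled by an Onset or a Sustained firing pattern and lateral olivocochlear neurons (LOC) by a Delayed one. In a negative control a pipette touched the slice and was processed in the same way, with no recorded neuron. The labels cover 44 Onset, 12 Sustained and 30 LOC neurons and 10 negative controls. Of these, 6 neurons and 2 controls were left out by a rule carried over from an earlier analysis, which set labels against tables of the study. The reason for each library was not rechecked here, and the choice may rest in part on expression. The comparisons hold 52 pLSOs (41 Onset, 11 Sustained), 28 LOCs and 8 controls. The labels name no animals, so each class counts as 1 sample, no test was made between classes, and the exact 95% intervals given for shares cover counting error only.

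The marker transcripts Spp1, Calca and Ucn followed the class labels in the kept neurons. At 25 RPM (reads per 1000000 recovered reads of the library) or more, Spp1 was present in 48 of 52 pLSOs and 0 of 28 LOCs, which allows a share of up to 10.7%. Calca, which encodes the peptide CGRP of olivocochlear neurons, was present in 26 LOCs and 5 pLSOs, and Ucn, which encodes urocortin, in 23 LOCs and 0 pLSOs. Spp1 was also present in 4 of the 8 controls and Calca in 5. Over the full lists the classes were less apart. At least 1 of 4 pLSO markers (Spp1, Slc17a6, Slc6a5 and Maf) was present in 52 pLSOs, 13 LOCs and 5 controls. Of 7 LOC markers, 6 were in the table, and at least 1 was present in 27 LOCs, 6 pLSOs and 5 controls. The recovered depth had a median of 602788 reads per pLSO, 436870 per LOC and 24147.5 per control. Oligodendrocyte markers summed to a median of 1952 RPM in pLSOs (0 to 130975), 3618 RPM in LOCs (20.7 to 90178) and 38396 RPM in controls (5693 to 88805), and all 5 of these markers were present in each class.

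The stretches below are the coding sequence around the Q/R site, shown because this single codon sets the calcium permeability of the receptor. Among the 4 subunits, only the Gria2 transcript is known to be changed there by the RNA-editing enzyme ADARB1 (ADAR2). Capitals mark the glutamine codon as the genome encodes it, in the Gencode vM21 transcripts.
Gria1: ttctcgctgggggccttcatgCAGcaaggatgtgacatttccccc
Gria2: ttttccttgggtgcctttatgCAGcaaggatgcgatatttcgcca
Gria3: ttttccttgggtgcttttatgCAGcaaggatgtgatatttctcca
Gria4: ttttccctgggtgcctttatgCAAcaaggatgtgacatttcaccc

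In GRCm38 they lie at chr11:57243073-57243117 (plus strand, exon 11 of 16), chr3:80706890-80706934 (minus strand, exon 11 of 16), chrX:41610244-41610288 (plus strand, exon 11 of 16) and chr9:4464116-4464160 (minus strand, exon 12 of 17), in the order of the genes. The Gria2 and Gria3 stretches shared 42 of 45 bases and Gria1 and Gria2 36 of 45. The deposited values count reads per gene, so edited and unedited Gria2 transcripts, and flip and flop splice forms, cannot be told apart in them.

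The TARPs fall into type I (Cacng2, Cacng3, Cacng4, Cacng8), which end in a PDZ-binding motif that anchors them to PSD-95, and type II (Cacng5, Cacng7), which end otherwise. Their ends are shown because they tell the types apart. Capitals mark the last 4 codons before the stop.
Cacng2: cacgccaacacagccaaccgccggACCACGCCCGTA
Cacng3: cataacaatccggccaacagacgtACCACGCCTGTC
Cacng4: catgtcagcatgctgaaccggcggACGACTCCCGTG
Cacng5: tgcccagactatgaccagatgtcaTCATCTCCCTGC
Cacng7: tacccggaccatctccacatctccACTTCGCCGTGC

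In these 36 bases Cacng2 shared 25 with Cacng3 and 24 with Cacng4 but 12 with Cacng5, and Cacng5 shared 24 with Cacng7. The stretches lie at chr15:77995152-77995187, chr7:122768808-122768843, chr11:107734783-107734818, chr11:107877355-107877390 and chr7:3366910-3366945, each in the last exon. Cacng4 and Cacng5 are neighbours on chromosome 11, with 80047 bases between them, and Cacng7 and Cacng8 on chromosome 7, with 22461 bases between them.

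The unit of the deposited values had to be settled before the genes could be compared. The values are TPM, read numbers scaled by length and depth, in whole numbers, but the length by which reads were divided followed the row of the table and not the gene. It was 3 bases for Gria3, 24 bases for Gria1, 371 bases for Gria2 and 994 bases for Cacng7. In the neuron of median depth scale, 1 read thus counted as 17.3 TPM for Gria3 and 0.14 TPM for Gria2, and 1 TPM stood for 19.2 reads of Cacng7. Reads were recovered from these steps, and 25 RPM was chosen, after the values were seen, as a level that every member could show in every kept neuron: the highest level that rounding could hide was 24.4 RPM, for Cacng7. The recovered reads were checked for being whole in rows 531 to 6000 of the table, and Gria3 (row 351), Gria2, Cacng3, Cacng5, Cacng7 and Cacng8 lie outside them.

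**Figure D1:**
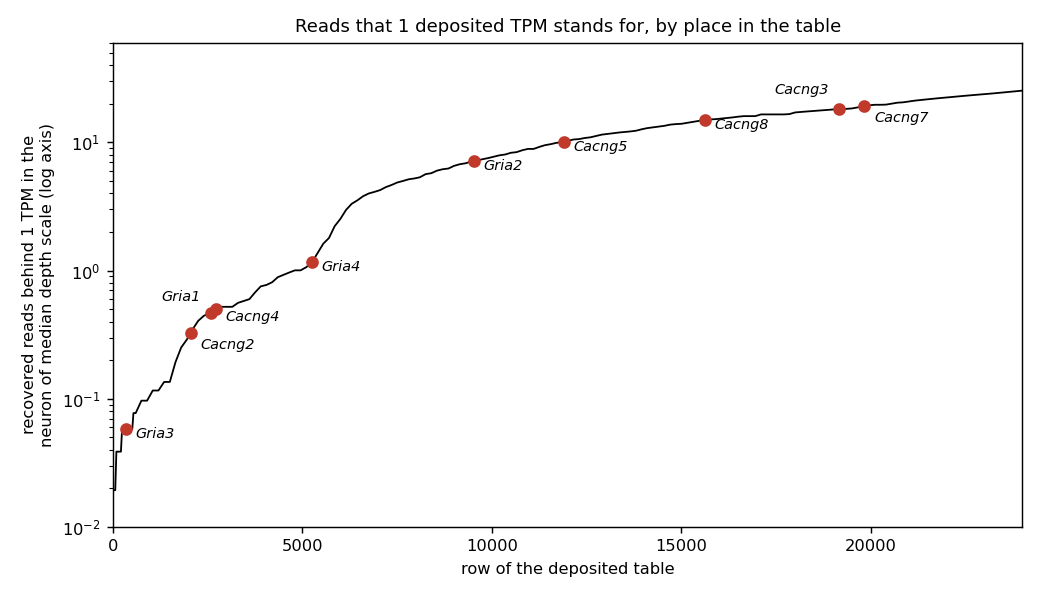
Recovered reads behind 1 deposited TPM (vertical log axis) against the row of the table (horizontal axis), with the 10 genes as points on the curve. The value rises from 0.0579 reads for Gria3 to 19.2 reads for Cacng7, so equal TPM values of different genes stand for different numbers of reads.

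Gria4 and Gria1 differed between the classes in opposite directions. Gria4 (ENSMUSG00000025892), known as the subunit of fast auditory synapses, was listed at 1 TPM or more in 38 of 52 pLSOs (73.1%, interval 59 to 84.4%) and in 8 of 28 LOCs (28.6%, 13.2 to 48.7%). At 25 RPM the shares were 53.8% (39.5 to 67.8%) and 17.9% (6.06 to 36.9%), and the intervals did not overlap. How many of all genes have class intervals that lie apart was not counted, here or below. Per neuron the level ran from 0 through a median of 133 to 1206 RPM in pLSOs and from 0 through 0 to 1359 RPM in LOCs, so 1 LOC exceeded the highest pLSO, and the next LOC stood at 363 RPM. The mean was 229 RPM in pLSOs and 76.2 RPM in LOCs, or 28.7 RPM without the highest LOC. On the log2(TPM + 1) scale the mean difference, pLSO minus LOC, was 2.71.

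Gria1 (ENSMUSG00000020524), a subunit prominent in the forebrain, showed the converse. It was listed in 22 pLSOs (42.3%, 28.7 to 56.8%) and 20 LOCs (71.4%, 51.3 to 86.8%). In 7 of the 22 pLSOs it rested on 2 reads or fewer, and at 25 RPM the shares were 25.0% (14.0 to 38.9%) and 57.1% (37.2 to 75.5%). These intervals overlapped by a narrow margin. The level ran from 0 through 0 to 1316 RPM in pLSOs and from 0 through 86.3 to 1361 RPM in LOCs, and the mean log2 difference was -2.67.

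Gria2 (ENSMUSG00000033981), which makes receptors impermeable to calcium once edited, was the most widespread member in both classes. It was listed in 42 pLSOs (80.8%, 67.5 to 90.4%) and 23 LOCs (82.1%, 63.1 to 93.9%). The level ran from 0 through 239 to 1988 RPM in pLSOs and from 0 through 550 to 2420 RPM in LOCs. Shares were close, and the log2 difference of -0.86 stayed under the size of 1 used to name a difference. It passed that size with all 86 neurons (-1.10) and in the neurons with 2000 or more detected genes (-1.02).

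Gria3 (ENSMUSG00000001986), an X-linked subunit, was rare. It was listed in 17 pLSOs (32.7%, 20.3 to 47.1%), with 2 reads or fewer in 6 of them, and in 3 LOCs (10.7%, 2.27 to 28.2%). At 25 RPM it was present in 11 pLSOs (21.2%, 11.1 to 34.7%) and 1 LOC (3.57%, 0.0904 to 18.3%), and all 11 pLSOs were Onset neurons. The level ran from 0 through 0 to 536 RPM in pLSOs, and the single LOC stood at 327 RPM. The log2 difference was 1.95 as deposited, 1.01 after rescaling to the gene's own length and 0.50 in RPM with a pseudocount of 25. Its place above 1 thus depended on the scale and pseudocount used, and the cause was not tested.

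**Figure D2:**
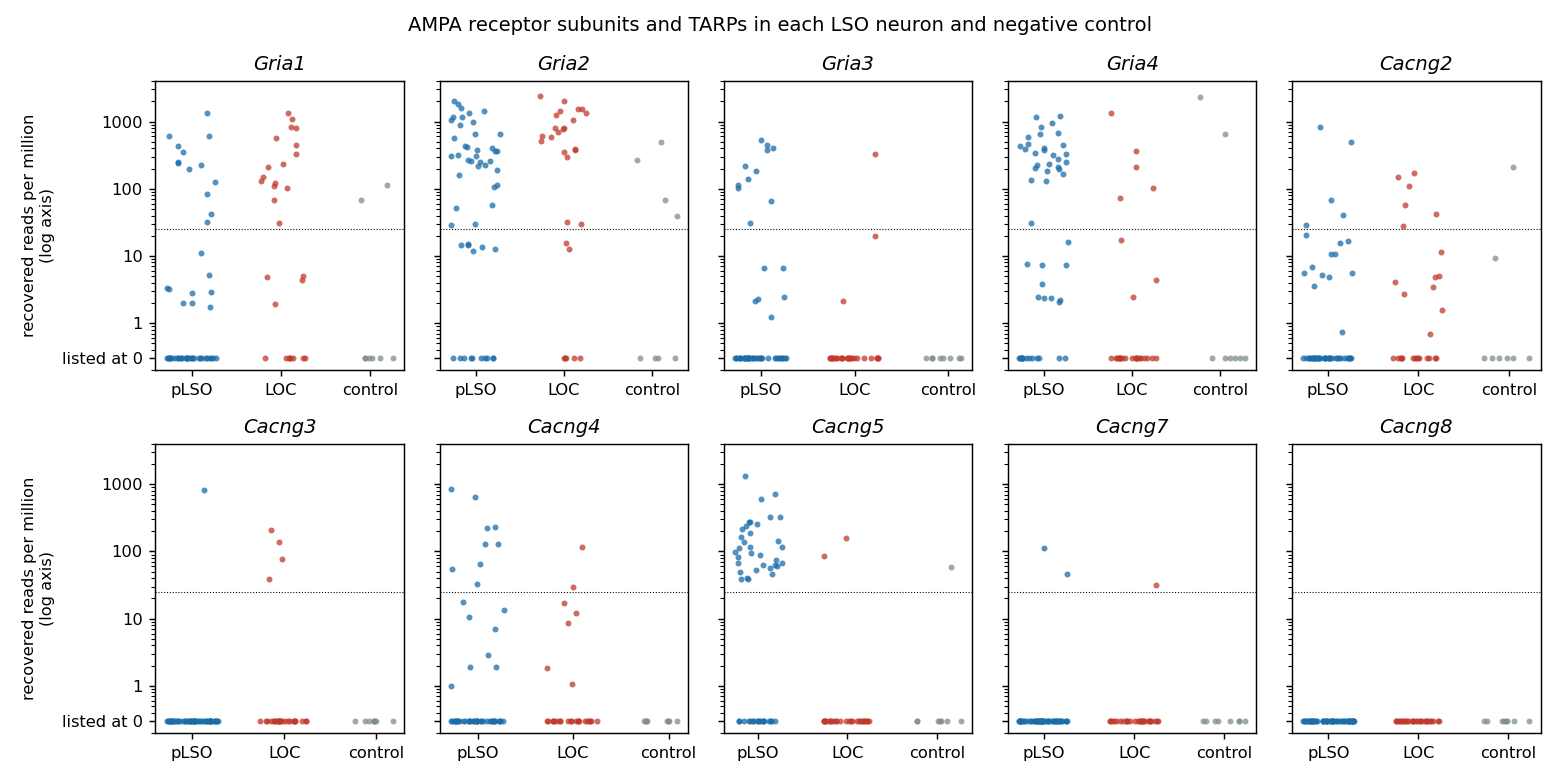
Recovered RPM (log axis, values listed at 0 drawn at the foot) of each member in each of 52 pLSOs, 28 LOCs and 8 negative controls, 1 point per library, with a dotted line at 25 RPM. For every member the lowest neuron of each class is at 0; 34 pLSOs but 2 LOCs lie above the line for Cacng5, and 16 LOCs but 13 of the more numerous pLSOs for Gria1.

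Among the TARPs, Cacng5 showed the largest difference in share between the classes. Cacng5 (ENSMUSG00000040373) encodes γ5, a type II TARP. It was present in 34 of 52 pLSOs (65.4%, 50.9 to 78%) and 2 of 28 LOCs (7.14%, 0.877 to 23.5%), and the counts were the same at 1 TPM and at 25 RPM. The level ran from 0 through 61.8 to 1320 RPM in pLSOs, and the LOCs with the transcript reached at most 160 RPM. The mean log2 difference was 1.67 as deposited, 3.89 after rescaling to the gene's own length and 0.47 with a pseudocount of 10 TPM, where it no longer reached 1. Rounding could hide at most 12.9 RPM of Cacng5 in any kept neuron, which lies under 25 RPM.

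The type I TARPs were less widespread. Cacng2 (ENSMUSG00000019146), which encodes stargazin, was listed in 17 pLSOs (32.7%) and 14 LOCs (50.0%), but at 25 RPM in 5 pLSOs (9.62%, 3.20 to 21.0%) and 6 LOCs (21.4%, 8.30 to 41%). Its mean of 30.0 RPM in pLSOs became 14.5 RPM without the highest neuron, a Sustained neuron at 820 RPM. Cacng4 (γ4) was present at 25 RPM in 9 pLSOs (17.3%, 8.23 to 30.3%) and 2 LOCs (7.14%, 0.877 to 23.5%), and its highest pLSO reached 860 RPM. For both genes the intervals of the classes overlapped.

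Cacng3 (γ3) was present in 1 pLSO, at 833 RPM, and in 4 LOCs (14.3%, 4.03 to 32.7%), the highest at 211 RPM. Cacng7 (γ7) was present in 2 pLSOs and 1 LOC, with at most 113 RPM. Cacng8, the γ8 of the hippocampus, was listed at 0 in all 80 neurons and all 8 controls. This allows a share of up to 5.77% of pLSOs and 10.7% of LOCs, at a level that rounding could hide of at most 19.1 RPM. Low levels of these last genes were thus not detectable in the table.

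**Figure D3:**
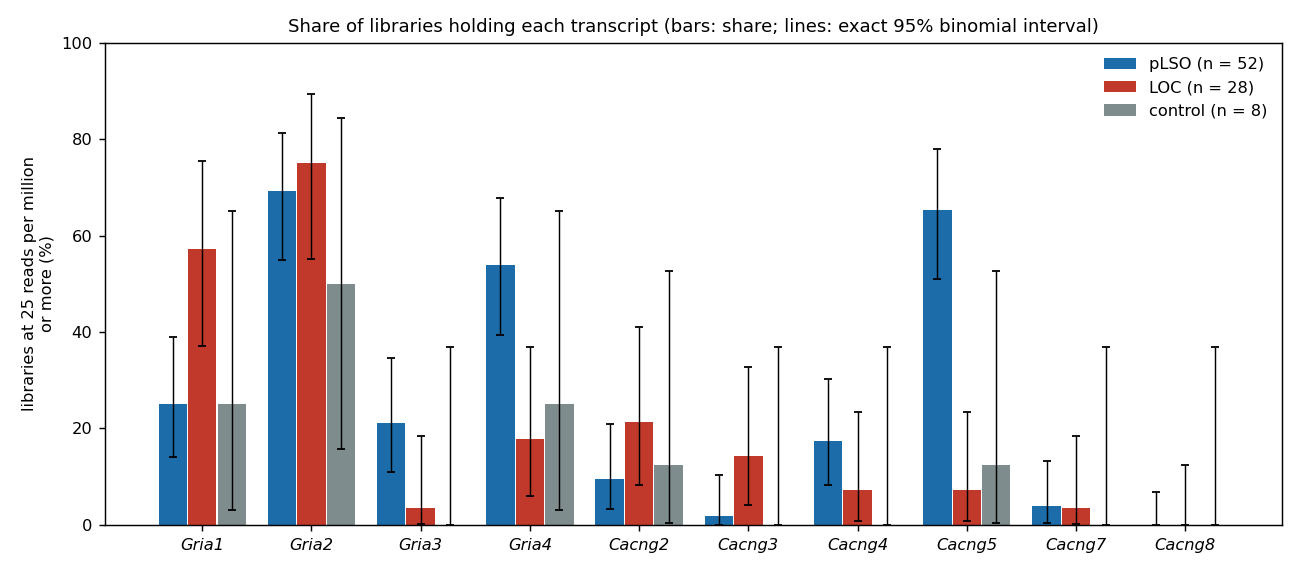
Share of libraries at 25 RPM or more (%) for each member in pLSOs (n = 52), LOCs (n = 28) and negative controls (n = 8), with exact 95% binomial intervals. The intervals of pLSOs and LOCs lie apart for Gria4 and Cacng5, at 53.8% against 17.9% and 65.4% against 7.14%. How often this holds among all genes was not counted.

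Of the 10 members, 8 were detected in 5% or more of the neurons, and Cacng7 and Cacng8 were not. By a log2 difference of 1 or more, 3 of the 8 were higher in pLSOs (Gria3, Gria4 and Cacng5), where 6.99% of all 10319 genes were, and 1 was higher in LOCs (Gria1), where 4.68% of all genes were. The 4 others (Gria2, Cacng2, Cacng3 and Cacng4) lay between -0.86 and 0.75, though in neurons with 2000 or more genes Cacng2 stood at -1.11 and Cacng4 at 1.01. The share at 25 RPM was 30 points or more higher in pLSOs for Gria4 and Cacng5, as for 1.29% of all genes, and 30 points or more higher in LOCs for Gria1, as for 0.93% of all genes.

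The negative controls held several members. Gria2 was listed in 4 of 8 controls (up to 25 reads), Gria1 in 2 (1 and 7 reads), Cacng2 in 2 (1 and 13 reads) and Cacng5 in 1 (1 read). Gria4 was listed in 2 controls with 66 and 70 reads, or 2295 and 642 RPM, above its median in pLSOs. Gria3, Cacng3, Cacng4, Cacng7 and Cacng8 were at 0 in all 8. At the depth of most controls a single read exceeds 25 RPM, and the interval of 2 of 8 reaches from 3.19 to 65.1%. The control interval of Gria4 thus overlaps those of pLSOs and LOCs. The share at 25 RPM did not exceed that in controls for Gria4 in LOCs (17.9% against 25.0%), Cacng5 in LOCs (7.14% against 12.5%) and Gria1 in pLSOs (25.0% in both). The same held for Cacng2 in pLSOs (9.62% against 12.5%). The reads behind these shares differed: Cacng5 had at least 52.2 reads in both LOCs that held it against 1 read in the control, and Gria1 up to 600 reads in pLSOs against 7 in controls. The part of slice RNA in these shares was not tested.

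Glial markers were set beside the members within each class. Over the 52 pLSOs the rank correlation with the summed oligodendrocyte markers was -0.01 for Gria4, 0.01 for Cacng5, -0.28 for Gria2 and 0.32 for Cacng4. Over the 28 LOCs the correlation with the same oligodendrocyte sum was -0.29 for Gria1 and 0.34 for Cacng2. With summed microglial markers the pLSOs gave 0.38 for Gria1 and 0.40 for Cacng4, and the LOCs 0.03 for Gria1 and 0.19 for Cacng2. In LOCs Cacng2 also had a correlation of 0.56 with the number of detected genes. These points share library and depth, and the part of glial RNA in the class differences was not tested.

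Onset and Sustained neurons differed most in Gria3. At 25 RPM it was present in 11 of 41 Onset neurons (26.8%, 14.2 to 42.9%) and 0 of 11 Sustained neurons, which allows up to 27.3%. Gria4 was present in 24 Onset (58.5%, 42.1 to 73.7%) and 4 Sustained neurons (36.4%, 10.9 to 69.2%), Gria1 in 9 (22%) and 4 (36.4%), and Cacng5 in 27 (65.9%) and 7 (63.6%). The intervals overlapped for each of these genes, and no member reached a difference of 30 points in share, as 0.543% of all genes did in favour of Onset and 2.34% in favour of Sustained neurons. By a log2 difference of 1 or more, Gria3 (3.02) and Gria4 (1.33) were higher in Onset neurons, where 4.78% of all genes were, and Gria1 (-1.03) was higher in Sustained neurons, where 10.3% of all genes were. In RPM with a pseudocount of 25 the differences were 0.84, 0.69 and -0.46, so none of these 3 reached 1 on that scale. With 11 Sustained neurons, differences of this size in share were not resolved.

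Levels of different genes were compared only per length, as reads per kilobase of the gene's own exons scaled to the same sum in every neuron. In pLSOs Gria4 came first with 115 ± 155 (SD over 52 neurons), followed by Cacng5 with 103 ± 177 and Gria2 with 86.7 ± 117. In LOCs Gria2 came first with 141 ± 149 and Gria1 second with 117 ± 179, while Gria4 stood at 38.7 ± 139 and Cacng5 at 7.35 ± 28.6. The gaps between neighbours in either order were smaller than the spread over neurons. As deposited, Gria3 would lead all 80 neurons with a mean of 315 TPM; per length it stood in place 8 of 10 with 12.5, and per longest coding transcript in place 6 with 16.3.

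The subunit makeup of single neurons followed the same lines. Of the summed AMPA subunit level per length, Gria4 took a mean of 39% ± 37.4 in the 51 pLSOs with any subunit, Gria2 36% ± 37.5, Gria1 17% ± 31.7 and Gria3 7.96% ± 19.7 (SD). In the 26 LOCs with any, Gria2 took 54.9% ± 38.95, Gria1 36.1% ± 39.98, Gria4 8.13% ± 19.6 and Gria3 0.873% ± 4.07. Gria4 was the leading subunit in 24 pLSOs and 1 LOC, and Gria2 in 15 pLSOs and 17 LOCs. Of the pLSOs led by Gria4, 22 were Onset neurons and 2 were Sustained neurons. Among the 10 Sustained neurons with any subunit, Gria2 led in 6. There Gria2 took a mean of 53.0% ± 41.9 and Gria4 24.2% ± 34.4, so the lead of Gria4 rested on Onset neurons. Per longest coding transcript, on which Gria2 is shorter, Gria2 and Gria4 each led in 19 pLSOs. Single libraries ranged from 0 to 100% for Gria1 and Gria2 in both classes.

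**Figure D4:**
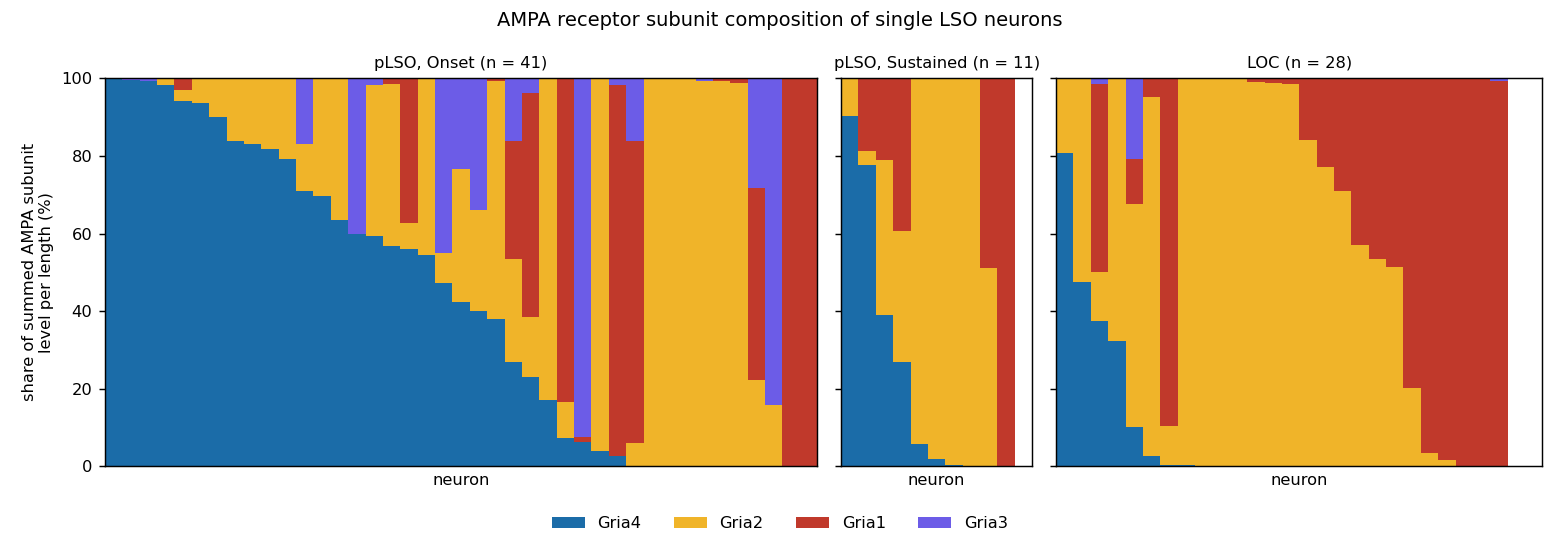
Share of each subunit in the summed AMPA subunit level per length (%) of single neurons, 1 stacked bar per neuron, sorted by Gria4 and split into 41 Onset, 11 Sustained and 28 LOC neurons, with blank bars where no subunit was listed. Gria4 (blue) covers much of the Onset panel, and Gria2 (yellow) and Gria1 (red) cover the LOC panel.

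Combinations at 25 RPM gave the contrast as counts of neurons. Gria4 without Gria1 was found in 22 of 52 pLSOs (42.3%, 28.7 to 56.8%) and 3 of 28 LOCs (10.7%, 2.27 to 28.2%). Of these pLSOs, 21 were among 41 Onset neurons (51.2%, 35.1 to 67.1%) and 1 among 11 Sustained neurons (9.09%, 0.23 to 41.3%). The Onset and Sustained intervals overlapped, and the Sustained share was close to that of LOCs. Gria1 without Gria4 was found in 7 pLSOs (13.5%, 5.59 to 25.8%) and 14 LOCs (50.0%, 30.6 to 69.4%). For each pattern the intervals of the classes lay apart, and both genes together were found in 6 pLSOs and 2 LOCs. How often intervals lie apart for other pairs of genes was not counted. At 1 TPM the first pattern was found in 23 pLSOs and 3 LOCs, the second in 7 and 15, and both genes together in 15 and 5. The most frequent combinations were Gria2 with Gria4 in 12 pLSOs and Gria1 with Gria2 in 11 LOCs. Another subunit without Gria2 was found in 11 pLSOs (21.2%, 11.1 to 34.7%) and 3 LOCs (10.7%, 2.27 to 28.2%). Of the 8 controls at 25 RPM, 2 (25.0%, 3.19 to 65.1%) held Gria4 without Gria1 and 2 held Gria1 without Gria4. Another subunit without Gria2 was likewise found in 2 controls. These control shares lie above those of LOCs for the first pattern, of pLSOs for the second and of both classes for the last. The part of slice RNA in the patterns was not tested.

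Any TARP was present in 40 of 52 pLSOs (76.9%, 63.2 to 87.5%) and 12 of 28 LOCs (42.9%, 24.5 to 62.8%). Cacng5 was the only TARP in 25 pLSOs and 2 LOCs. Of the summed TARP level per length of a neuron, it took a mean of 67.2% ± 41.8 (SD) in the 42 pLSOs with any TARP and 10.5% ± 31.5 in 19 LOCs, where it rested on 2 neurons and Cacng2 took 47.2% ± 45.5. An AMPA subunit with no TARP was found in 9 pLSOs (17.3%, 8.23 to 30.3%) and 13 LOCs (46.4%, 27.5 to 66.1%). These TARP contrasts depended on the threshold: at 1 TPM any TARP was listed in 80.8% of pLSOs and 67.9% of LOCs, and a subunit with no TARP in 10 pLSOs (19.2%) and 7 LOCs (25.0%), with overlapping intervals. Cacng5 met its neighbour Cacng4 in 5 pLSOs at 25 RPM and 12 at 1 TPM, and Gria4 in 20 and 26. Of the 8 controls at 25 RPM, 2 held any TARP (25.0%), and 5 held a subunit with no TARP (62.5%, 24.5 to 91.5%).

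The number of members present per neuron rose with the number of detected genes. It had a median of 3 in pLSOs (0 to 6) and 2 in LOCs (0 to 5) at 25 RPM. Its rank correlation with the number of detected genes was 0.51 over 52 pLSOs and 0.55 over 28 LOCs. In a neuron with few detected genes, a transcript listed at 0 may have been missed.

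The spontaneous excitatory currents (sEPSCs), recorded before harvest at a holding potential that makes them inward, were slower in LOCs. The decay time constant ran from 0.50 through a median of 0.74 to 1.04 ms in 49 pLSOs and from 1.12 through 1.92 to 3.42 ms in 28 LOCs, without overlap. The amplitude ran from 16.4 through 25.5 to 47.5 pA in pLSOs and from 20.0 through 42.9 to 92.5 pA in LOCs. The rise time ran from 0.17 through 0.27 to 0.38 ms in pLSOs and from 0.25 through 0.41 to 1.04 ms in LOCs. Decay separated the classes, whereas the ranges of rise time and amplitude overlapped. Onset and Sustained neurons overlapped in decay, with medians of 0.74 ms (n = 39) and 0.84 ms (n = 10).

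Within pLSOs, no member reached a rank correlation of 0.3 or -0.3 with decay or amplitude. The 7 members detected in 25% or more of the pLSOs had rank correlations between -0.22 (Gria2) and 0.23 (Gria4) with decay over 49 neurons. With amplitude they lay between -0.18 (Cacng4) and 0.16 (Cacng2). Of 3998 genes, 2.18% reached 0.3 and 0.975% reached -0.3 with decay, and 2.2% and 1.98% with amplitude. With rise time Gria4 reached 0.31 (Pearson's r of 0.29 on the log2 scale), as did 1.95% of all genes, with 1.68% at -0.3 or less. In the 42 neurons with 2000 or more detected genes, Cacng5 reached -0.31 with decay and Gria4 stood at 0.24 with rise time. Median decay was 0.80 ms in the 26 pLSOs with Gria4 at 25 RPM and 0.73 ms in the 23 without, with quartiles of 0.70 to 0.84 and 0.61 to 0.81 ms.

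Within LOCs, Gria1 was lower where currents decayed slowly. Its rank correlation was -0.34 with decay (Pearson's r of -0.39) and -0.41 with rise time over 28 LOCs. Median decay was 1.87 ms (quartiles 1.48 to 1.97) in the 16 LOCs with Gria1 at 25 RPM and 2.09 ms (1.79 to 2.48) in the 12 without, and the ranges overlapped. Cacng4 had -0.30 with decay and -0.47 with rise time, though only 2 LOCs held it at 25 RPM. Correlations of -0.3 or less were found for 5.21% of 3880 genes with decay and 7.96% with rise time, and correlations of 0.3 or more for 5.85% and 2.84%. With amplitude the 5 members detected in 25% or more of the LOCs lay between -0.15 and 0.06, where 7.94% of genes reached 0.3 and 3.27% reached -0.3. In the 22 LOCs with 2000 or more genes, Gria2 stood at -0.32 with amplitude and 0.44 with rise time. In counts this sparse, these weak correlations are descriptions only.

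**Figure D5:**
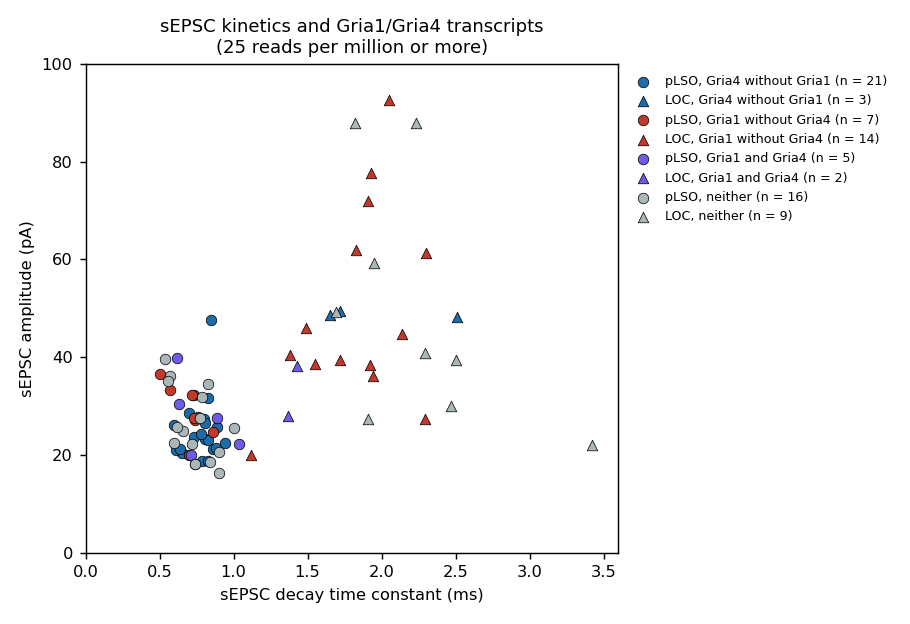
sEPSC amplitude (pA) against decay time constant (ms) for 49 pLSOs (circles) and 28 LOCs (triangles), coloured by whether Gria1 and Gria4 reached 25 RPM. The classes separate along decay, at 1.04 ms or less against 1.12 ms or more. The 2 LOCs with both genes lie at 1.37 and 1.43 ms, and the 14 LOCs with Gria1 alone of the pair between 1.12 and 2.30 ms.

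Partners of AMPA receptors were described from a list of 46 genes. All 46 were in the table, and 35 were detected in 5% or more of the neurons. By a log2 difference of 1 or more, 5 of the 35 were higher in pLSOs and 1 in LOCs, at 6.99% and 4.68% of all genes. Lrfn5, a synaptic adhesion molecule (SALM5), was present at 25 RPM in 36 pLSOs (69.2%, 54.9 to 81.3%) and 2 LOCs (7.14%, 0.877 to 23.5%). Olfm1, an extracellular AMPA receptor interactor, was present in 37 pLSOs (71.2%) and 12 LOCs (42.9%), and Dlg1, which encodes the scaffold SAP97, in 29 (55.8%) and 8 (28.6%). Cnih3, a cornichon that slows AMPA receptor gating, was present in 10 pLSOs (19.2%, 9.63 to 32.5%) and 0 LOCs. Camk2b, a kinase subunit of synaptic plasticity, was the partner higher in LOCs, with 18 (64.3%) against 15 pLSOs (28.8%), and 3 of 8 controls held it.

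Adarb1, whose product edits the Q/R site shown above, was present in 26 pLSOs (50.0%, 35.8 to 64.2%) and 5 LOCs (17.9%, 6.06 to 36.9%). Its paralogue Adar was present in 8 pLSOs and 7 LOCs. Of the other list genes, Nsf was present in 36 pLSOs and 18 LOCs, Camk2d in 31 and 13, Camk2g in 26 and 13, Sacm1l in 23 and 9 and Cnih1 in 18 and 7. Cacng1 and Cacng6, γ subunits of the same gene family that are not TARPs, were listed at 0 throughout, as were Shisa6, Shisa8, C1ql2 and Nptx2.

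For each member detected in 25% or more of the 80 neurons, the genes with the most similar ranks of TPM were sought among 3799 genes. For Cacng5 the closest was Spp1 with a rank correlation of 0.49, and for Gria4 it was Grin2b with 0.50, followed by Trim2 with 0.45 and Ptprd with 0.45. Cryba2 and Ptprd followed for Cacng5, each with 0.46. Spp1 was listed in 96.2% of pLSOs and 3.57% of LOCs and Grin2b in 63.5% and 17.9%, so these likenesses run partly along the classes. For Gria1, Fxyd6 and Arhgdig each stood at 0.46, and for Gria2 they were Ppm1h with 0.46, Snhg11 with 0.45 and Dclk1 with 0.44. Fxyd6 was listed in 1.92% of pLSOs and 67.9% of LOCs and Dclk1 in 32.7% and 85.7%, so the same limit holds for them. The lists of Gria3 (Col4a3bp, Laptm4b and Uba1), Cacng2 (Rpl35a, Syn2 and Scoc) and Cacng4 (Jtb, Nbea and Gm2a) ran from 0.40 to 0.55. Among the members themselves no pair exceeded 0.24, and Gria1 and Gria4 stood at -0.25 over the 80 neurons of both classes. Gria1 was listed in 42.3% of pLSOs and 71.4% of LOCs, and Gria4 in 73.1% and 28.6%. The same limit thus holds for this pair, and its correlation within each class was not tested.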

How the data were processed

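The authors amplified each neuron's RNA by a modified Smart-seq2 method, trimmed reads with Trim Galore 0.4.2, aligned them to mm10 with STAR, and used Picard 1.115 and featureCounts. The score values of the table are TPM that were deposited rounded to integers; library totals lie between 999773 and 1000026. The sEPSC features come from the labels, 1 value per neuron.

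Gencode vM21 (GRCm38) gave each gene's name, position and length, and it holds 37570 of the 38887 genes. Reads were recovered from the step that 1 read makes in each library and row. In rows 531 to 6000, 98.5 to 99.8% of the checked values lay within 0.15 reads of a whole number. The recovery was also run on data simulated from the fitted row lengths and reads. Such a run cannot show that the fitted lengths are right for the deposited values. Detection meant 1 TPM or more, and the level of 25 RPM was added after the values were seen. Differences are of mean log2(TPM + 1), a scale that understates changes of low genes. Comparisons took genes detected in 5% of neurons, and correlations those in 25% of a class. Intervals of shares are Clopper-Pearson intervals. No pair of libraries had more than 7.53% equal values.

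The members, the gene lists and the left-out libraries were chosen with earlier results of these data known. Named genes are all members, the partners with a mean of 10 TPM or detection in 50% of a class, and the 3 genes closest in rank to each member. Of the latter, 1 is not reported here. Partners named for being at 0 were chosen after their values were seen. Alternatives were thresholds of 5 and 10 TPM, a pseudocount of 10, values rescaled to gene length, all labelled libraries and neurons with 2000 or more genes. Scripts ran under matplotlib 3.10.9, SciPy 1.17.1, NumPy 2.4.6, pandas 2.3.3 and Python 3.11.15.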

Additional observations from a re-analysis of the deposited data

Results flagged for a closer look

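Among the 8 negative controls, 1 library stood apart from the others for each of 3 members. Gria4 reached 1267 TPM in 1 control, Cacng2 358 TPM in another and Cacng5 3 TPM in yet another, the last on 1 read. Chance gives such a distance in about 1 of 20 groups of normally distributed values. That rate does not hold here, since at least 6 of the 8 controls were at 0 for each gene and a single read then stands apart. In a control left out of the comparisons, Cacng5 stood at 60.04 RPM, above the highest kept control at 59.2 RPM, and Gria4 at 739 RPM, on 149 reads. The source of these transcripts was not tested.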

How the results depend on the processing

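Directions of the class differences of Gria1, Gria3, Gria4 and Cacng5 were kept under each alternative run, with sizes that moved. Among neurons with 2000 or more genes, Gria2, Cacng2 and Cacng4 also passed a log2 difference of 1. At 25 RPM the share of pLSOs with Gria1 was 25.0% and with Gria4 53.8%, and at 10 TPM 26.9% and 53.8%. At 5 TPM Gria4 stood at 55.8% and Cacng5 at 34.6% of pLSOs, and at 10 TPM Cacng5 stood at 21.2% of pLSOs and 0% of LOCs. A threshold in TPM is a threshold of different reads for each gene by construction. The log2 difference of Cacng5 was 3.89 per own length and 0.47 with a pseudocount of 10, and that of Gria3 0.50 in RPM, the last 2 under 1, and the cause was not tested. With all labelled neurons 2 members passed 1 in LOCs, Gria2 added. No paired analysis was possible because the labels name no animal or slice by which neurons could be paired. The rounding to whole TPM at the lengths used for their rows limits what can be said of Cacng3, Cacng7 and Cacng8. It could hide up to 23.2, 24.4 and 19.1 RPM. The labels name no animals, so variation between animals could not be estimated, and the intervals cover counting error only.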
